A study of Mus musculus with 12 samples.

Results

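Transcripts of 10 early response genes were described in mouse fibroblasts kept for 2 h with interleukin-1β. They comprised the 4 zinc finger factors Egr1, Egr2, Egr3 and Egr4, the 3 orphan nuclear receptors Nr4a1, Nr4a2 and Nr4a3, and the immediate early response genes Ier2, Ier3 and Ier5. The genes were taken by symbol, and all 10 matched 1 of the 27179 Entrez gene IDs in the count tables. The cells were NIH3T3, a line of immortalized mouse embryonic fibroblasts. They were RelA-/-, without the endogenous p65 subunit of NF-κB, and carried a Rela-DsRed fusion. All 12 samples shared that genotype and were labelled as 4 groups of 3, kept in microfluidic devices with IL-1b at 0.2 ng/mL, LPS at 100 ng/mL, PAM at 0.2 ng/mL or media. The labels do not say what drives the fusion, whether the line is 1 clone, or whether the 3 samples of a group came from separate cultures.

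Only the 3 IL-1 libraries were used. The other 9 tables were exact copies of the table of IL-1 replicate 3, down to the alignment named in the header, and so held no counts for LPS, PAM or media. No gene was compared with media, so an increase or decrease under IL-1 cannot be read from the levels below. The 3 libraries held between 17254518 and 18578859 counts. Replicate 1 stood apart from the others. The ratio of a gene's variance of counts to that of counting error had a median of 3.53 between replicates 1 and 2. This median was 2.58 between 1 and 3, against 1.86 between 2 and 3. For 2 libraries, counting error alone gives a median ratio below 1, so these medians serve only to compare the pairs. Fibroblast markers were present, with all 10 listed at 1 count per 1000000 counts of the library (CPM) or more in each library. None of 4 epithelial or 3 endothelial markers reached that level. Of 5 leukocyte and macrophage markers 3 did, namely Lyz2 (mean 9.69 CPM), Cd68 (2.05 CPM) and Csf1r (1.84 CPM). Ptprc, which all leukocytes express, had 3, 0 and 6 counts, and Adgre1 had 4, 0 and 0. These 5 markers had a summed level of 13.3, 17.5 and 10.6 CPM in replicates 1 to 3. Their part in the levels below was not tested.

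Early response genes are transcribed within minutes of a stimulus from factors already present in the cell. MAP kinases phosphorylate ternary complex factors such as ELK1, which act with serum response factor (SRF) at CArG boxes, and CREB binds cyclic AMP response elements (CRE). EGR proteins and NR4A receptors are transcription factors that carry the signal to later genes, and their messages are short-lived. In bulk RNA, fewer cells with a transcript and less of it per cell cannot be told apart.

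Of the 10 genes, 6 reached 1 CPM in each of the 3 libraries, namely Egr1, Nr4a1, Nr4a2, Ier2, Ier3 and Ier5. Of all protein-coding genes, 51.1% did. The other 4 were Egr2 and Egr3, which averaged below that level, Egr4 with 1 read in all and Nr4a3 with none. Summed over each family, the IER genes had 252.8 ± 7.05 CPM (mean ± SD, n = 3, as in all that follows), the NR4A genes 45.7 ± 9.11 CPM and the EGR genes 11.4 ± 2.59 CPM. Each sum was mostly 1 gene: Ier3 made up 71.0% of its family's CPM, Nr4a1 81.4% and Egr1 86.3%.

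**Figure D1:**
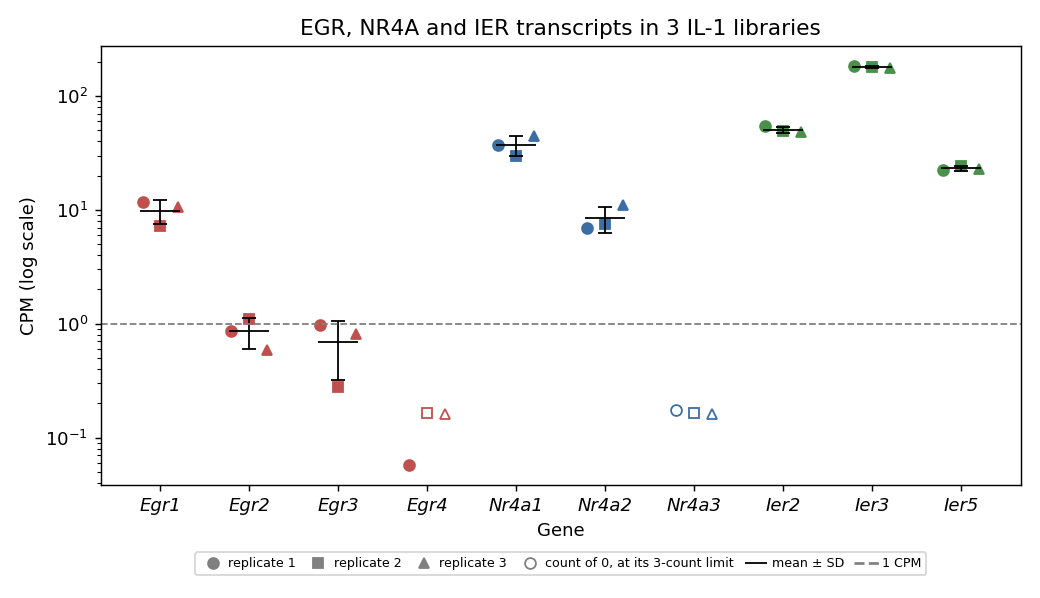
Each point is the CPM of 1 gene in 1 IL-1 library on a log axis, coloured by family (EGR red, NR4A blue, IER green); bars show the mean ± SD of genes with counts in all 3 libraries, and open symbols are counts of 0 drawn at the limit of 3 counts. The points of Ier2, Ier3 and Ier5 lie almost on top of each other, Egr1, Nr4a1 and Nr4a2 spread more widely, and Nr4a3 has open symbols only.

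Ier3 was the most abundant of the 10. It encodes a small protein linked to survival under inflammatory stress and is a known NF-κB target (Entrez 15937, chromosome 17, 35821713 to 35822911, GRCm38.p6, protein-coding, 2 exons). Its counts were 3152, 3274 and 3244 in replicates 1 to 3, or 182.7, 181.0 and 174.6 CPM, with a mean of 179.4 ± 4.25 CPM. The 3 libraries were close together, with the highest 1.05-fold above the lowest. Per kb of merged exons Ier3 stood at 158.6 ± 3.76 CPM, above 98.5% of the protein-coding genes. The 3 genes closest to Ier3 across the 3 libraries, by Euclidean distance in log2(CPM + 0.5), were Emc3 (distance 0.030), Rcl1 (0.031) and Gtpbp4 (0.039). Over 3 replicates of 1 group this likeness is one of level.

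Ier2 encodes a nuclear protein of serum-stimulated cells (Entrez 15936, chromosome 8, 84661331 to 84662852, 1 exon). It had 933, 887 and 888 counts, or 54.1, 49.0 and 47.8 CPM, with a mean of 50.3 ± 3.33 CPM. Replicate 1 was highest and the other libraries were close together. Ier5, which binds protein phosphatase 2A and acts on the heat shock factor HSF1 (Entrez 15939, chromosome 1, 155096367 to 155099636, 1 exon), had 383, 442 and 422 counts, or 22.2, 24.4 and 22.7 CPM. Its mean was 23.1 ± 1.17 CPM, with replicate 2 highest.

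The base sequence before the transcript start of Ier3, the member with the highest level, is shown with its match to the κB motif, the site of NF-κB dimers, in capitals (RefSeq, GRCm38.p6, plus strand, chr17:35821463-35821712, 5′ to 3′). The match begins 92 bases before the start.
Ier3: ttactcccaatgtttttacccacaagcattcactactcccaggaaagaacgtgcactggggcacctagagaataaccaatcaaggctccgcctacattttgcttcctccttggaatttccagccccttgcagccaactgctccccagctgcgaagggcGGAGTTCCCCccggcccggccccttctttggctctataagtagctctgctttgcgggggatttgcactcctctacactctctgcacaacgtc

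The 3′ UTR of Ier3 was also rich in AUUUA, the pentamer at the core of AU-rich elements that decay factors bind. Its principal transcript (GENCODE M21) held 5 copies in 613 bases, or 8.16 per kb, and 4 of the longer form UAUUUAU. Over 19360 protein-coding genes with a 3′ UTR of at least 100 bases, the median was 1.33 per kb, 10% of genes lay above 4.56 per kb, and 66.6% had at least 1. Of the 10 genes, 8 had at least 1 and 3 had UAUUUAU (Ier3, Nr4a2 and Nr4a3), against 27.8% of those genes. Nr4a1 was second by density at 5.52 per kb, with 3 copies in 543 bases, while Ier2 and Egr4 had none. The highest and the lowest of the 10 by level, Ier3 and Nr4a3, both had it. The first 30 bases with 2 copies in each of the densest UTRs, at chr17:35822476-35822505 for Ier3 and chr15:101274701-101274730 for Nr4a1 (both plus strand), show the pentamers in capitals, in DNA letters.
Ier3 site: ctccgtgtctaattaatATTTAtgtATTTA
Nr4a1 site: gATTTAtatttgtgtattttcctggATTTA

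Within the NR4A family the levels ran from well expressed to not detected. The 3 receptors act without a known natural ligand and bind DNA alone. The proteins of Nr4a1 and Nr4a2 also bind it with retinoid X receptors. Nr4a1, also called Nur77 (Entrez 15370, chromosome 15, 101253902 to 101274795, 8 exons), had 642, 542 and 827 counts, or 37.2, 30.0 and 44.5 CPM, a mean of 37.2 ± 7.28 CPM. Replicate 3 was 1.49-fold above replicate 2. Nr4a2, or Nurr1 (Entrez 18227, chromosome 2, 57106830 to 57124003, 8 exons), had 120, 136 and 204 counts, or 6.95, 7.52 and 10.98 CPM, a mean of 8.48 ± 2.18 CPM. It too was highest in replicate 3, at 1.58 times the lowest, replicate 1. Nr4a1 lay above Nr4a2 in every library, per kb as well (10.6 ± 2.07 against 2.09 ± 0.537 CPM per kb).

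Nr4a3, or Nor1 (Entrez 18124, chromosome 4, 48045078 to 48086447, 8 exons), had no count in any library. A count of 0 allows up to 3 counts, or 0.161 to 0.174 CPM in 1 library and 0.0556 CPM over the 3 together, for counting error only. Against that limit over the 3 libraries, Nr4a1 was at least 1142-fold and Nr4a2 at least 225-fold higher per kb. The 3 receptors are similar in sequence. The longest run of identical bases between the principal transcripts was 27 bases, for Nr4a2 with Nr4a3. It was 24 bases for Nr4a1 with Nr4a3 and 14 bases for Nr4a1 with Nr4a2. Whether ambiguous reads bear on the count of Nr4a3 was not tested. None of the 10 genes shared its span with another gene model in GENCODE M21.

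The promoters of the 3 NR4A genes are shown because all 3 carried the core of the CRE repeatedly (RefSeq, GRCm38.p6, the 250 bases before the start, 5′ to 3′). Capitals mark TGACG or, on the other strand, CGTCA. Nr4a1 lies at chr15:101266596-101266845 (plus strand), Nr4a2 at chr2:57124004-57124253 (minus strand) and Nr4a3 at chr4:48045055-48045304 (plus strand).
Nr4a1: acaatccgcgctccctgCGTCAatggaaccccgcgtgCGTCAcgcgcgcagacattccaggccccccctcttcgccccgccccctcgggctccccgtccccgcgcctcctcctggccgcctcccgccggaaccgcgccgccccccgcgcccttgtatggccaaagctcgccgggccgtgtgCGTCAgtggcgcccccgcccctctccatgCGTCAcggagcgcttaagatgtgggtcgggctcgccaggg
Nr4a2: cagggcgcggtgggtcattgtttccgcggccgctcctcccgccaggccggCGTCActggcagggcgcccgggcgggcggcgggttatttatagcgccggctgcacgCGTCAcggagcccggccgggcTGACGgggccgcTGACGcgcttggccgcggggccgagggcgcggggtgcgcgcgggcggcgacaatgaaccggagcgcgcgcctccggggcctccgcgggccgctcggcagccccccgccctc
Nr4a3: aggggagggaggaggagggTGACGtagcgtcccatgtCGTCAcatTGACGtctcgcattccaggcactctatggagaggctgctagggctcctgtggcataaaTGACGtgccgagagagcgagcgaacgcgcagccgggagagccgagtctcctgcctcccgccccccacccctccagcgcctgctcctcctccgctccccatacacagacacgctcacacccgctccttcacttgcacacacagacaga

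The table gives 1 start for each NR4A gene. That of Nr4a2 is the end of the gene span printed above, where transcription of this minus-strand gene begins, whereas those of Nr4a1 and Nr4a3 lie inside the span, downstream of its first base. Each of the 3 promoters held 4 matches to TGACG on either strand. In the 32851 promoters of the same table, each 300 bases long (250 before and 50 after the start), 20.8% held at least 1 match and 0.231% (76 promoters) at least 4. The minimum of 4 was chosen after these promoters had been seen. The matches lay 233, 213, 69 and 40 bases before this start of Nr4a1, 200, 144, 123 and 111 before that of Nr4a2, and 231, 213, 205 and 147 before that of Nr4a3. The full palindrome TGACGTCA was in none of the 7 members with a promoter in the table and in 2.03% of all genes in it. The gene without a read and the gene with the highest level of the family had the same number of core matches. A link of matches to level was not tested. Nr4a1 also had the only match to the EGR motif GCGGGGGCG among the 7 genes, 60 bases before its start, against 3.31% of all genes in the table. GCGTGGGCG, another EGR site, and AAAGGTCA, the site of NR4A monomers, were in none (0.707% and 1.70% of all genes).

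**Figure D2:**
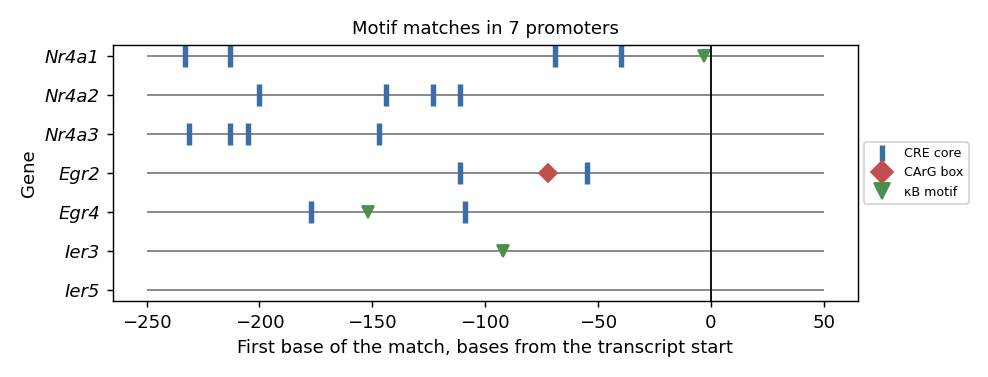
Each row is 1 promoter from 250 bases before to 50 after the transcript start (vertical line), with the first base of each match to the CRE core (blue bars), the CArG box (red diamond) or the κB motif (green triangles). Nr4a1, Nr4a2 and Nr4a3 have 4 blue bars each, Egr2 (the third of its 5 starts in the table) has 2 beside the only diamond, and Ier5 has none of the 3 motifs.

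The EGR family was the lowest of the 3. Egr1, the prototype factor induced by growth signals (Entrez 13653, chromosome 18, 34861207 to 34864956, 2 exons), had 204, 131 and 195 counts, or 11.8, 7.24 and 10.5 CPM, a mean of 9.85 ± 2.36 CPM. Replicate 2 was lowest, and replicate 1 was 1.63-fold above it. Egr2, also called Krox20, is required for myelination (Entrez 13654, chromosome 10, 67534469 to 67542188, 2 exons). It had 15, 20 and 11 counts, or 0.869, 1.11 and 0.592 CPM, and passed 1 CPM in replicate 2 alone. Egr3, known from T cells and muscle spindles (Entrez 13655, chromosome 14, 70077317 to 70082613, 2 exons), had 17, 5 and 15 counts, or 0.985, 0.276 and 0.807 CPM. It was lowest in replicate 2, as Egr1 was. Egr4 (Entrez 13656, chromosome 6, 85511121 to 85513589, 2 exons) had 1 read, in replicate 1.

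At these counts the order of Egr2 and Egr3 was not resolved: their means were 0.856 ± 0.257 and 0.690 ± 0.369 CPM, and their values overlapped. The longest identical run between Egr2 and Egr3 was 44 bases, that between Egr3 and Egr4 38 bases, and Egr1 shared at most 17 bases with any of the other three. The read length is not given in the sources used here, so a few reads of Egr2, Egr3 and Egr4 could have been ambiguous.

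Egr2 was the only 1 of the 7 genes with a CArG box match, against 1.81% of all genes in the table. The table gives 5 starts for Egr2, and 4 of these promoters held a match, but not each at a separate site. The promoters of starts 3, 4 and 5 overlap and share the same site, CCATATATGG, which begins 72, 73 and 133 bases before them. Their TGACG matches are shared as well. Start 2 had a different match, CCTTTTTTGG. With 5 promoters Egr2 had more than 1 window in which to match, and 1.63% of the 32851 promoters held a match. The third start is shown with the CArG box and 2 CRE core matches in capitals, since the CArG box lies between the others (chr10:67537619-67537868, plus strand).
Egr2: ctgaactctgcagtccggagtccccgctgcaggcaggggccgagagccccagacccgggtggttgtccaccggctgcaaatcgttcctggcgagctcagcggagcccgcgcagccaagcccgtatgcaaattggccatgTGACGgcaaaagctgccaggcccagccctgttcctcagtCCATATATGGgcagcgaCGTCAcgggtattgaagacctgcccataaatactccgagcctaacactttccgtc

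The CArG box began 72 bases before that start and the TGACG matches 111 and 55 bases before it. The κB motif was found in 3 of the 7 genes, Ier3, Egr4 and Nr4a1, against 5.14% of all genes in the table. Of these, Ier3 had the highest level of the 10 genes and Egr4 had 1 read. CCGGAA, the core of ETS factor sites, was in Egr2 and Nr4a1 (16.7% of all genes) and TATAAA in Nr4a2 (15.7%). Ier5 had a match to none of the motifs searched. Promoters of Egr1, Egr3 and Ier2 were not used here. A match describes letters in the window and is no evidence of binding.

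Ranked by CPM per kb of merged exons, the order was Ier3, Ier2, Nr4a1, Ier5, Egr1, Nr4a2, Egr2, Egr3, Egr4 and Nr4a3. Of the 9 neighbouring pairs in this order, 6 had no overlap between their 3 values and 3 did. Ier3 was 4.80-fold above Ier2 (33.0 ± 2.18 CPM per kb), and Ier2 was 3.12-fold above Nr4a1. Nr4a1 was 1.50-fold above Ier5 (7.06 ± 0.357 CPM per kb), with the lowest value of Nr4a1 at 8.54 and the highest of Ier5 at 7.46 CPM per kb. Egr1 (2.20 ± 0.526 CPM per kb) and Nr4a2 overlapped, and they changed places without replicate 1 (1.98 and 2.28 CPM per kb) and with the longest transcript as length (2.20 and 2.38). Both lengths of Egr1 were 4484 bases, longer than its RefSeq span printed above. A length within that span would give Egr1 a higher level per kb, and these changes of place with such a length were not tested. Nr4a2 was 8.30-fold above Egr2 (0.252 ± 0.0756 CPM per kb). Egr2 with Egr3, and Egr4 with Nr4a3, were the other overlapping pairs. The median of the 10 genes was 2.14 CPM per kb, against 0.486 for all 20729 protein-coding genes with a known length and 6.94 for the 10724 detected ones. Exon lengths came from GENCODE M21, and the annotation the authors counted on is not given in the sources used here.

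Over all 3 libraries, Egr1, Nr4a1 and Nr4a2 varied more between replicates than the detected IER genes, but leaving out 1 library could undo this. The coefficient of variation (CV, SD over mean of CPM) was 23.9% for Egr1, 19.5% for Nr4a1 and 25.7% for Nr4a2. Counting error alone would give 7.52%, 3.86% and 8.08% at their mean counts. It was 6.61% for Ier2, 2.37% for Ier3 and 5.06% for Ier5, where counting error would give 3.33%, 1.76% and 4.90%. The variance was 10.1 times that of counting error for Egr1, 26.0 times for Nr4a1 and 10.1 times for Nr4a2, but 3.89 times for Ier2, 1.83 times for Ier3 and 1.06 times for Ier5. With 3 libraries, the 97.5 percentile of pure counting error is 3.69 times. Of the 6 detected members, 4 exceeded this, as did 50.8% of all 11224 detected genes, so exceeding it was common in these libraries.

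Set against genes within 1.5-fold of the same mean CPM, Nr4a1 had a larger CV than 97.1% of 2462 genes, whose median was 7.87%. Nr4a2 exceeded 92.6% of 1527 genes (median 12.6%) and Egr1 92.4% of 1660 genes (median 11.9%). Ier2 exceeded 45.7% of 2413 genes, Ier5 20.2% of 2257 genes and Ier3 14.1% of 1180 genes. The 3 detected transcription factor genes thus lay near the top of the spread at their level, and the 3 IER genes at or below the middle. This difference in spread was not tested. It depended on the libraries used for 2 of the 3 genes. Without replicate 2 the CV of Egr1 was 8.41%, below the 8.71% of Ier2, while Nr4a1 was at 12.6% and Nr4a2 at 31.7%. Without replicate 3 the CV of Nr4a2 was 5.50%, below Ier2 at 6.92% and Ier5 at 6.78%, while Egr1 was at 34.0% and Nr4a1 at 15.3%. Without replicate 1 the CVs of Egr1, Nr4a1 and Nr4a2 lay between 26.0% and 27.6%, and those of the IER genes between 1.80% and 5.15%. Nr4a1 thus exceeded each IER gene whichever library was left out.

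**Figure D3:**
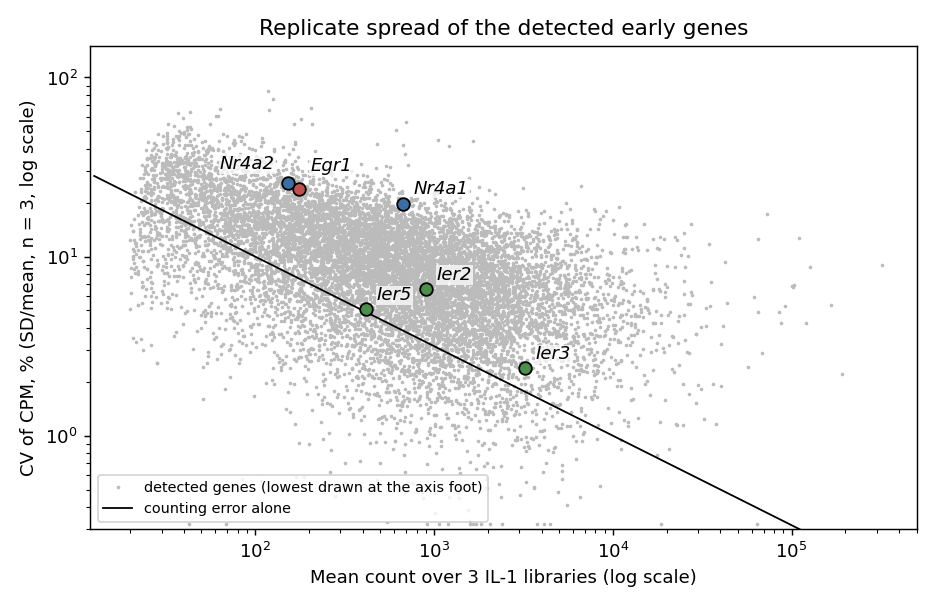
The CV of CPM over the 3 IL-1 libraries is plotted against the mean count, both on log axes, for the 11224 detected genes (grey) and the 6 detected members (coloured by family); the line is the CV that counting error alone gives. Nr4a1, Nr4a2 and Egr1 sit in the upper part of the grey points at their counts, Ier5 and Ier3 lie close to the line, and Ier2 lies between.

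The detected members were not all highest in the same library. Of the 6, 3 were highest in replicate 1 (Egr1, Ier2 and Ier3), 1 in replicate 2 (Ier5) and 2 in replicate 3 (Nr4a1 and Nr4a2), where 45.7%, 27.1% and 27.3% of all detected genes were highest. With 6 genes, this split cannot be told apart from those shares. For Ier3 and Ier5 the variance was 1.83 and 1.06 times that of counting error, so their highest library is not resolved. Egr1 and Nr4a1 were both lowest in replicate 2, which was the lowest library of 41.9% of detected genes. The 3 genes closest to Nr4a2, the detected member with the largest CV, were Cenpk (distance 0.14), Ppp1r14c (0.14) and Mrnip (0.15), with the same Euclidean measure over 3 libraries.

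Of 50 other genes, listed as pathway or early response genes, 48 reached 1 CPM in every library. Of all protein-coding genes, 51.1% did. The lists were chosen with earlier results of these data known, so this difference is no result about the pathway. The EGR corepressors Nab1 and Nab2, which bind EGR proteins and limit their activity, were at 56.8 ± 1.20 and 25.6 ± 4.29 CPM. Per kb of exon both stood above Egr1, at 13.9 ± 0.294 and 8.71 ± 1.46 CPM. Nab2, itself a known EGR target, had 27.8, 20.7 and 28.4 CPM in replicates 1 to 3, and Nab1 had 55.6, 58.0 and 56.9 CPM. Replicate 2 was the lowest library of 41.9% of all detected genes, and a link of Nab2 to Egr1 was not tested. Among the retinoid X receptors, partners of the proteins of Nr4a1 and Nr4a2, Rxrb was at 26.0 ± 3.50 CPM and Rxra at 11.2 ± 0.395 CPM. Rxrg had no count.

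Transcripts of the listed upstream factors were detected in every library, as were those of 51.1% of all protein-coding genes. Proteins and activity of the factors were not measured. All 6 genes of SRF and its partners reached 1 CPM, led by the ternary complex factor Elk3 at 93.5 ± 10.1 CPM and the coactivator Mrtfb at 46.1 ± 1.42 CPM, with Srf itself at 17.7 ± 2.42 CPM. All 6 of the CREB arm did, with Atf1 at 72.8 ± 6.93 CPM and Creb1 at 59.0 ± 6.49 CPM. All 11 MAP kinase genes did as well, among them Map2k2, which encodes MEK2, at 180.4 ± 6.74 CPM and Map2k1, which encodes MEK1, at 177.2 ± 5.68 CPM, with the lowest being Rps6ka5, which encodes the kinase MSK1, at 2.62 ± 0.154 CPM. Of the IER relatives and partners, Hsf1 was at 138.7 ± 11.5 CPM, the phosphatase subunit Ppp2ca at 137.7 ± 7.22 CPM and the paralog Ier5l at 10.9 ± 1.18 CPM.

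Other early response genes also spanned a wide range. Of 17 listed, 16 reached 1 CPM in every library, against 51.1% of all protein-coding genes. The kinase genes Sgk1 and Plk2 were highest at 1494 ± 43.2 and 711.0 ± 23.7 CPM, and Myc was at 549.6 ± 39.0 CPM. Per kb of exon, Sgk1 (304.8 ± 8.80) and Myc (202.3 ± 14.3) stood above Ier3, and Plk2 (158.3 ± 5.28) overlapped with it. Csrnp1 was the 1 below the minimum, at 1.33, 0.553 and 0.592 CPM, and Klf2, a shear-responsive factor, was low at 1.60 ± 0.287 CPM.

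**Figure D4:**
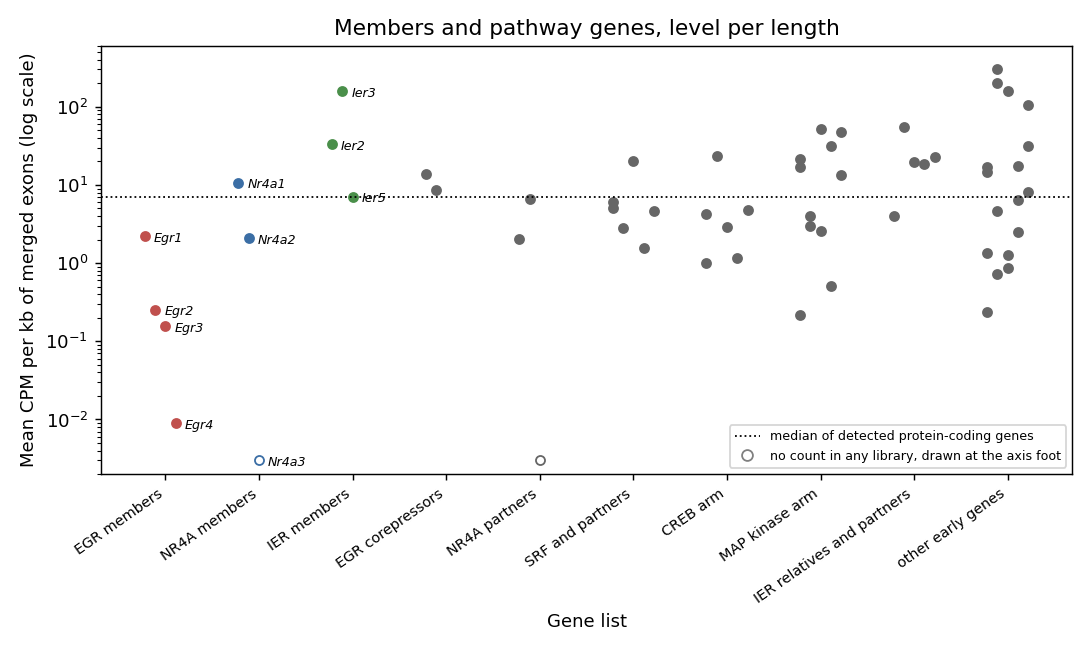
Each point is the mean CPM per kb of merged exons of 1 gene over the 3 IL-1 libraries, on a log axis, for the members by family (coloured, named) and for 7 lists of pathway genes (grey); the dotted line is the median of detected protein-coding genes, 6.94. Ier3, Ier2, Nr4a1 and Ier5 lie on or above the line, the 4 EGR genes below it, and Nr4a3 and Rxrg have no count and are drawn at the foot.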

How the data were processed

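PolyA RNA of 12 samples was measured. Cells were lysed, reverse-transcribed without RNA extraction, pre-amplified and tagmented, per the labels' protocols. The deposited tables hold raw counts per Entrez gene ID; the authors used CASAVA, STAR and featureCounts with mm10, per the submitters' processing notes. Versions, annotation and strand setting: not given in the sources used here. Counts are reads, not molecules. CPM used each library's total (17254518 to 18578859); detection meant 1 CPM in all 3 libraries. Symbols and positions came from RefSeq (GRCm38.p6; 25275 of 27179 IDs matched), lengths, exons (principal transcript by APPRIS tag, then length) and UTRs from GENCODE M21, and promoters from the RefSeq table, where 7 of the 10 genes matched. Alternatives were edgeR's TMM and RLE factors (version 4.0.16 under R 4.3.3), other minima, other lengths and leaving out each library. The dispersion index (chi-square per degree of freedom) was tested on simulated data. No comparison between groups was possible. Other steps ran in Python 3.11.15 with pandas 2.3.3. Genes were named by rule: all members, the 2 highest and the undetected of each list, and the 3 nearest genes of 2 members. The values of 1 list gene are not reported here. Other named list genes were picked after their values were seen. The members and lists were chosen with earlier results of these data known.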

Additional observations from a re-analysis of the deposited data

How the results depend on the processing

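No paired analysis was possible because a single group, IL-1, could be used and no result came from a test. With TMM or RLE factors, or with the total over IDs with a symbol, the means of the members moved by between -2.09% and 2.22%, less than 1 SD each; the means without 1 library also stay within 1 SD, by construction. The number of detected members stayed at 6 with those factors, a minimum of 2 CPM, the mean in place of each library, and without any 1 replicate. It was 7 at a minimum of 0.5 CPM, with Egr2 added. The order per kb kept all 10 ranks with TMM factors and 8 with the longest transcript; it kept 8 to 10 when 1 replicate was left out. The median CV of the detected members was 13.1%, and ranged from 6.85% without replicate 3 through 8.56% without replicate 2 to 15.6% without replicate 1. On the scale of log2(CPM + 0.5) the spread of Egr2 fell from 30.0% to 19.4% and that of Egr3 from 53.5% to 34.4%, since the pseudocount weighs on low values. Depth limits Egr2, Egr3, Egr4 and Nr4a3, each with 20 or fewer reads per library.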
